A study of Mus musculus with 4 samples.

Results

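The genes described here make up the machinery of histone H3 lysine 9 (H3K9) methylation and the DNA methylation linked to it: enzymes that write the mark, their partners, proteins that read it, enzymes that erase it, and the DNA methyltransferases with their guide protein UHRF1. A list of 32 gene names was matched to the array's platform annotation, taking every probe set with 1 gene symbol. This gave 31 genes with 84 probe sets, of 18193 genes and 45037 probe sets in all. Suv39h1 was the name without such a probe set. Of the 31 genes, 30 had at least 1 probe set above the level filter (the 50th percentile of the mean over all arrays), with 59 probe sets in all, and Kdm4d did not.

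The study measured gene expression in immortalized brown preadipocytes, the cultured precursor cells of brown fat, from mice of the strain given as mixed C57/BL6-129. All cells carried floxed alleles of G9a (G9a f/f) and were grown in DMEM with fetal bovine serum. The control cells received the vector and are labelled wild type although they carry the same floxed alleles. The other cells received Cre and bear the label of a G9a knockout. Each group had 2 arrays, numbered 1 and 2. The study asked how loss of G9a changes gene expression. The labels do not name the agent that immortalized the cells, the way Cre was delivered, the deleted exons, or whether the cells of an array were a clone or a pool, and they leave unsaid whether arrays of 1 group stem from different cultures. P-values therefore measure only the spread between these arrays. Without pairing by number, that spread holds the difference between numbers 1 and 2 in sex-linked and lineage transcripts given below. The arrays of a group are thus not plain technical repeats. A fit that pairs arrays of the same number takes this difference out. Its p-values rest on how far the Cre minus vector differences of the 2 numbers disagree, and mostly on variance shared over probe sets. The number of arrays limits the precision.

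H3K9 methylation is a mark of silenced chromatin. G9a (gene Ehmt2) and its partner GLP (Ehmt1) place single and double methyl groups at genes within active regions, while the SUV39H and SETDB enzymes place the triple methyl mark of dense heterochromatin. HP1 proteins bind the methylated lysine, and demethylases of the KDM families remove it. In fat cell precursors G9a is known as a repressor of the adipogenic program.

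Values are quantile-normalised signals in the order vector 1, vector 2, Cre 1, Cre 2. Differences are Cre minus vector on the log2(signal + 16) scale, each with the standard error (SE) of a limma model over 22519 probe sets (n = 2 against 2), and a gene is represented by its brightest probe set. The 2 replicate numbers differed in the transcripts of sex-linked genes: a probe set of Xist read 11049 and 9810 deposited signal units in vector 1 and Cre 1 and 41.8 and 58 in vector 2 and Cre 2. They also differed in 2 of the 3 listed brown lineage markers, Zic1 and Lhx8. The third, Prdm16, read 56.4, 87.8, 140 and 149, higher in both Cre arrays. Zic1 read 46.2 and 15.3 in vector 1 and Cre 1 and 939 and 821 in vector 2 and Cre 2, and Lhx8 read 9.68 and 18.8 against 507 and 467, so both lay under the filter level of 60.6 units in the arrays numbered 1. All 7 preadipocyte markers with a probe set (Itgb1, Pdgfrb, Dlk1, Thy1, Ebf2, Pdgfra and Cd34) were above that level in all 4 arrays, and they did not share a direction. Dlk1, a preadipocyte surface protein, read 5695, 5067, 1718 and 4679, a difference of -0.92 ± 0.44, and Pdgfra, a receptor of mesenchymal precursors, read 230.9, 97.3, 87.7 and 69.2, a difference of -0.83 ± 0.42. Both had both Cre arrays lower, as had Cd34 (-0.44), while Itgb1 (0.21) had both higher and Pdgfrb (0.40) was higher within each number. Thy1 (413 and 506 in the arrays numbered 1, 2902 and 2459 in those numbered 2) and Ebf2 (67.2 and 78.7 against 248 and 234) split by number. None of the 7 passed in either limma model.

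Markers of other cell types were not all low. Among 5 leukocyte markers, Cd14 (374 to 542), Csf1r (132, 184, 172 and 241) and Cd68 (84.8, 181, 141 and 162) were above the filter level in all 4 arrays, while Adgre1 (23.1 to 40.9) and the defining gene Ptprc (2.14 to 14.9) were below it. Among 4 endothelial markers, Kdr read 69.3, 9.57, 140.8 and 72.1, above that level in 3 arrays, while Cdh5, Tek and Pecam1 (3.68 to 9.68) were below it in all 4. The muscle gene Myod1 (16.4 to 31.5) and the mature fat gene Adipoq (3.98 to 19.9) were below it too. None was listed at 0. The summed signal of the 4 endothelial markers was 113 and 56.3 in vector 1 and 2 and 226 and 134 in Cre 1 and 2. That of the 5 leukocyte markers ran from 780 to 836 in vector and from 814 to 898 in Cre. The part of these cell types in the results below was not tested. In bulk samples, fewer cells of a type and less RNA per cell cannot be told apart.

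Among the writers, the deleted gene itself had the largest difference. Ehmt2, which encodes G9a, read 2722, 2646, 949 and 941 at its brightest probe set (1460692_at). Both Cre arrays lay far below both vector arrays, and within each group the arrays nearly coincided. The signal was 2.81-fold lower in Cre cells, a difference of -1.49 ± 0.20 (95% interval -1.98 to -0.996), with -1.504 in number 1 and -1.48 in number 2. The second probe set, 1426888_at, was much dimmer and read 139, 197, 35.5 and 77.2, a difference of -1.39 ± 0.38. Neither passed over all probe sets in the model without pairing (limma adjusted p = 0.227 and 0.779). With the replicate number as a block Ehmt2 fell at both (limma adjusted p = 0.000281 and 0.017). Where the probes lie relative to the deleted exons was not analysed here, so the source of the signal left in Cre cells was not tested.

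Ehmt1, which encodes GLP, the partner of G9a in its methyltransferase complex, read 1573, 1877, 1334 and 1397. Both Cre arrays lay below both vector arrays, by a smaller margin than for Ehmt2. Its difference was -0.33 ± 0.22 (-0.23 and -0.42 within numbers 1 and 2), which did not pass in either model (limma adjusted p = 0.999, and 0.31 with the block).

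Mecom was the member with the largest difference upward. The gene encodes the zinc finger factor EVI1 and, from a distant upstream start, the PR-domain protein PRDM3, to which monomethylation of H3K9 has been ascribed. It read 1219, 955, 2669 and 1474, so both Cre arrays exceeded both vector arrays, with Cre 1 far above Cre 2. The signal was 1.83-fold higher in Cre cells, a difference of 0.87 ± 0.33 (95% interval 0.055 to 1.68), with 1.12 in number 1 and 0.62 in number 2. It did not pass without the pairing (limma adjusted p = 0.999) and rose with the replicate number as a block (limma adjusted p = 0.017, SE 0.17). That call was lost when probe sets of all levels were tested (limma adjusted p = 0.132). Array Cre 1 set much of the size: the difference was 0.44 without Cre 1, 1.29 without Cre 2, 1.04 without vector 1 and 0.696 without vector 2. The other 2 probe sets of Mecom lay below the filter and did not share a direction, with 0.077 at 1422295_at and -0.63 at 1423011_at.

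The windows at the 2 annotated starts of Mecom, from 250 bases before to 50 after each start, are shown because this was the member, other than Ehmt2, that passed in the paired model. They come from RefSeq for build GRCm38.p6, where 28 of the 32 names had a window. Capitals mark CpG dinucleotides, the sites of DNA methylation.
Mecom chr3:30013155-30013454, minus strand: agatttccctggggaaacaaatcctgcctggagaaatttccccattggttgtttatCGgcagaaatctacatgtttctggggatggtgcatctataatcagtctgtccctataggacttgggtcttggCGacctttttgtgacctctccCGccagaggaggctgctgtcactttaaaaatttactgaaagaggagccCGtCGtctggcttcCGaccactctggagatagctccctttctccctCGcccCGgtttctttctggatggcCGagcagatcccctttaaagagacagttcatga
Mecom chr3:30509710-30510009, minus strand: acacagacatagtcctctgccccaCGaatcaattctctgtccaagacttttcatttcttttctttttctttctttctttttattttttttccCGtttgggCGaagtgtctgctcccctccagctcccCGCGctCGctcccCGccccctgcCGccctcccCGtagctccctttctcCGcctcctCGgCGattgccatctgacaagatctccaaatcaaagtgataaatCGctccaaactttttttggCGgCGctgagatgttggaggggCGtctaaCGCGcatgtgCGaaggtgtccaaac
The first window held 9 CpG and the second 19, against a median of 7 over 32851 windows of the same length and 28 over the 47 windows of the members. The arrays do not tell which start the signal came from.

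**Figure D1:**
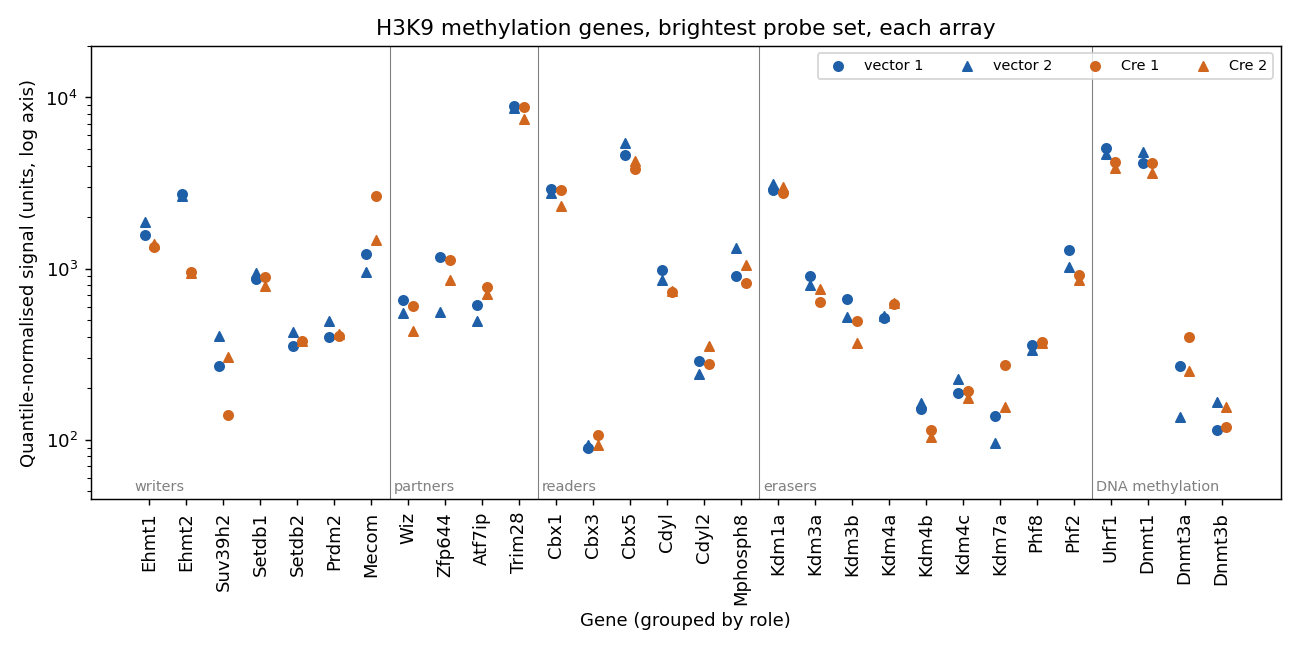
Quantile-normalised signal (log axis) of the 30 member genes that passed the filter, at the brightest probe set, with 1 point per array. Ehmt2 stands out with vector arrays at 2722 and 2646 and Cre arrays at 949 and 941, and Mecom and Kdm7a with both Cre arrays above both vector arrays.

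No other writer passed in either model. Suv39h2, an enzyme of constitutive heterochromatin, read 271, 402, 139 and 303, with Cre 1 lowest and Cre 2 above vector 1, so the groups overlapped. Its difference was -0.64 ± 0.41 (-0.89 and -0.39 within numbers 1 and 2; limma adjusted p = 0.999, and 0.155 with the block). The value depended on single arrays, from -0.12 without Cre 1 to -1.16 without Cre 2, with -0.37 without vector 2 and -0.91 without vector 1. Another probe set of Suv39h2, 1436561_at, read 63.4, 157, 90 and 115, a difference of 0.0064 (0.42 and -0.41 within the numbers). The remaining one gave -0.47, so a lower signal was not seen at every probe set.

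Setdb1, the enzyme recruited by KRAB zinc finger proteins, read 875, 947, 895 and 793, and its relative Setdb2 read 353, 428, 378 and 379. Prdm2, a PR-domain protein also known as RIZ, read 397, 497, 406 and 416. At these brightest probe sets all 3 overlapped between the groups, with differences of -0.11, -0.038 and -0.11 and SEs of 0.23 to 0.25. Another probe set of Prdm2, 1453068_at, read 203, 218, 167 and 179, with both Cre arrays lower and a difference of -0.26 ± 0.24. The dim 1444123_at of Prdm2 gave 0.071.

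Partners of the writers showed 1 gene with groups apart. Atf7ip encodes the cofactor that keeps SETDB1 stable in the nucleus, and it read 617, 493, 778 and 709. The difference of 0.42 ± 0.25 (0.33 and 0.51 within the numbers) did not pass (limma adjusted p = 0.999, and 0.267 with the block). It ran from 0.26 without vector 2 to 0.58 without vector 1. Its second probe set, 1449192_at, differed by 0.0041, so the difference was seen at 1 of the probe sets past the filter.

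Wiz, a zinc finger protein of the G9a and GLP complex, read 654, 549, 607 and 435, a difference of -0.22 ± 0.27. Zfp644, which also binds that complex, read 1168, 559, 1128 and 854, a difference of 0.27 ± 0.39. For Zfp644 the odd array was vector 2, and the numbers gave -0.049 and 0.598. Trim28, the corepressor that links KRAB zinc finger proteins to SETDB1, read 8876, 8637, 8740 and 7532. Its 95% interval of -0.42 to 0.20 was among the narrower ones, with a difference of -0.11 ± 0.13.

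Readers of the mark include the 3 HP1 proteins. Cbx5, which encodes HP1 alpha, read 4585, 5411, 3844 and 4252 at its brightest probe set, with both Cre arrays lower. The difference there was -0.30 ± 0.17 (-0.25 and -0.35 within the numbers; limma adjusted p = 0.999, and 0.191 with the block). Other probe sets of Cbx5 went apart: 1421934_at read 830, 1148, 1133 and 1160, a difference of 0.23, while 1450416_at gave 0.041 and the dim 1421933_at gave -0.58. A direction for Cbx5 is therefore not settled by these probe sets.

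Cbx1, the gene of HP1 beta, likewise depended on the probe set. Its brightest read 2915, 2755, 2864 and 2315, a difference of -0.14 ± 0.20, while the other 4 differed by 0.11 to 0.30. Among those 4, 1422935_x_at read 269, 291, 332 and 367, 1431773_at read 108, 156, 135 and 165, and 1450797_a_at read 88.2, 99.4, 94.7 and 134. These 3 were higher in both numbers where the brightest was lower in both. Cbx3, the gene of HP1 gamma, was represented by 1 dim probe set, the only one annotated with its symbol alone, at 89.3, 92.8, 107 and 93.4.

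Cdyl, a chromodomain corepressor, read 975, 854, 730 and 739, with both Cre arrays lower and a difference of -0.31 ± 0.23. Its relative Cdyl2 read 288, 243, 279 and 355, a difference of 0.24 ± 0.26, and the groups overlapped. Mphosph8, the chromodomain subunit of the HUSH silencing complex, read 910, 1315, 823 and 1056, a difference of -0.23 ± 0.28. None of these 3 passed in either model.

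The erasers held members apart in both directions. Kdm7a, which encodes a demethylase of H3K9 and H3K27, read 138, 96.3, 275 and 156, a 1.70-fold higher signal in Cre cells. Both Cre arrays lay above both vector arrays, and the difference was 0.76 ± 0.35 (0.91 and 0.61 within the numbers). It did not pass in either model (limma adjusted p = 0.999, and 0.117 with the block), and ran from 0.38 to 1.14 as each array was left out. The second probe set, 1456150_at, was also higher in both numbers, by 0.42 and 0.52. Below the filter, 1459820_at and 1427359_at gave 0.57 and 0.071, while 1459821_x_at gave -0.86 with both Cre arrays lower.

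The window at the start of Kdm7a is shown because its CpG content stands at the edge of the table: 65 CpG, the most of any member.
Kdm7a chr6:39206724-39207023, minus strand: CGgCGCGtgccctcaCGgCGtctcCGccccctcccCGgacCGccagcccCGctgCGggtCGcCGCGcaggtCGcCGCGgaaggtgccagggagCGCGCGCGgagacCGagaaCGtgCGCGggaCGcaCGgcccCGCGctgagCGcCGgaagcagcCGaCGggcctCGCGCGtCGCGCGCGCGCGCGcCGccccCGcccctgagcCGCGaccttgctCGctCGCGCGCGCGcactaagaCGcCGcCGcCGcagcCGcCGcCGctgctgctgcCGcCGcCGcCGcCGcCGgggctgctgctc
Capitals again mark CpG. Over all 32851 windows, 3 held at least as many.

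On the lower side stood Kdm3b, Kdm4b, Phf2 and Kdm3a, none of which passed in either model. Kdm3b, a JmjC demethylase of the single and double mark, read 660, 525, 492 and 368, a difference of -0.45 ± 0.27. Its dimmer probe set, 1458417_at, gave -0.48, with -0.49 and -0.48 within the numbers. Kdm4b, which acts on the triple mark, read 152, 164, 114 and 104, a difference of -0.48 ± 0.25. Phf2, a PHD finger demethylase, read 1287, 1026, 916 and 857, a difference of -0.37 ± 0.24. Kdm3a, an enzyme required for thermogenesis in brown fat, read 904.5, 799, 642.5 and 762, a difference of -0.28 ± 0.24. For each of the 4 genes both Cre arrays lay below both vector arrays, and with the block their limma adjusted p-values ran from 0.24 (Kdm3b) to 0.498 (Kdm3a). With 1 array left out the value of Kdm3b ran from -0.66 (without Cre 1) to -0.25 (without Cre 2), and that of Phf2 from -0.53 (without vector 2) to -0.21 (without vector 1).

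Other erasers had smaller differences. Kdm4a, a demethylase of the triple mark, read 517, 530, 619 and 627, with both Cre arrays slightly higher and a difference of 0.24 ± 0.23. Kdm1a, which encodes LSD1, read 2877, 3120, 2780 and 2980, a difference of -0.057 ± 0.18 with a 95% interval of -0.49 to 0.37. Kdm4c read 188, 228, 194 and 176, and Phf8, an X-linked PHD finger demethylase, read 358, 333, 370.5 and 369. Kdm4d, the member below the filter, read 28.4, 10.9, 33.5 and 34.2 and was not tested.

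**Figure D2:**
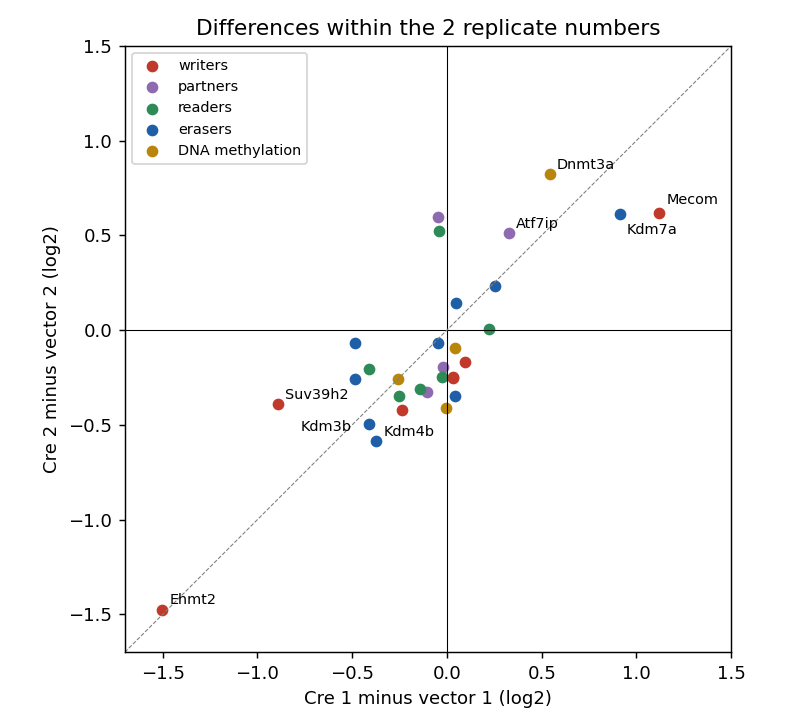
Difference of Cre minus vector (log2) within number 1 (x axis) and number 2 (y axis) for the 30 genes, coloured by role, with the dashed line where both are equal. Ehmt2 lies at -1.504 and -1.48, and Mecom, Kdm7a, Dnmt3a and Atf7ip are among the 7 genes positive in both numbers.

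Maintenance of DNA methylation rests on UHRF1, which binds both methylated H3K9 and freshly replicated CpG sites, and on DNMT1, which it brings there. Uhrf1 read 5041, 4658, 4205 and 3897, with both Cre arrays lower by a like amount in each number (-0.26 and -0.26). Its difference was -0.26 ± 0.15, and -0.51 ± 0.26 at its second probe set. Dnmt1 read 4136, 4784, 4119 and 3599, a difference of -0.21 ± 0.17. The Cre arrays lay below both vector arrays, though Cre 1 and vector 1 nearly coincided. A further probe set, 1435122_x_at, read 3295, 3331, 2582 and 2403, a difference of -0.41 ± 0.17 (limma adjusted p = 0.999, and 0.118 with the block), and the third gave -0.098. Neither gene passed in either model at any probe set.

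Both genes are known to be transcribed in dividing cells under E2F factors, and for each the window that held a match to an E2F motif is shown for that reason. The letters TTTGGCGC, TTTCCCGC, TTTCGCGC and TTTGCCGC were searched on both strands, and matches are in capitals.
Uhrf1 chr17:56304063-56304362, plus strand: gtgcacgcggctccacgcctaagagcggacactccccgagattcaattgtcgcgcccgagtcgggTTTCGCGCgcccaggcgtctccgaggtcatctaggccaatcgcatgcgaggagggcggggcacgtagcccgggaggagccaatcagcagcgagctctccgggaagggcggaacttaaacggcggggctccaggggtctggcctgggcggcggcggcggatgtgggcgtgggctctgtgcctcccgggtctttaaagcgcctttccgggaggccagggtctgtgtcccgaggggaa
Dnmt1 chr9:20952574-20952873, minus strand: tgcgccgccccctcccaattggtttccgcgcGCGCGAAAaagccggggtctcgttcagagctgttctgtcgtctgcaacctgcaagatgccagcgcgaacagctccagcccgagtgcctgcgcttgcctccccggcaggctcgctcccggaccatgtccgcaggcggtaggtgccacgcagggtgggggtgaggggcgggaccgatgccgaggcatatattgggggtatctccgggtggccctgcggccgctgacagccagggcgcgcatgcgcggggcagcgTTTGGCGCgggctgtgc
The Uhrf1 window held 1 match and that of Dnmt1 held 2. RefSeq lists 2 windows for Uhrf1 and 3 for Dnmt1, and the others, which are not shown, held 0. Of all 300-base windows 2.26% held a match, and of the 47 windows of the members 10.6% did, in 5 genes (Uhrf1, Dnmt1, Cbx3, Zfp644 and Suv39h1, the name without a probe set). Each of the searched words holds a CpG, and the median CpG count was 28 in the members' windows and 7 in all windows. The 2 shares were not compared at like CpG content, so they do not tell whether the members hold more matches than their CpG content brings. A match is a description of the letters and no evidence of binding.

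Proliferation genes were set beside these members. Of 20 listed, 19 were tested, 14 with a negative and 5 with a positive difference, beside 5417 negative and 5660 positive of all 11079 genes. In both limma models 0 passed. At an unadjusted p under 0.05 the counts were 0 in either direction without the block (3.8% of all genes higher and 1.27% lower), and 1 higher and 2 lower with it (10.8% and 7.53% of all genes). The median difference was -0.11, against 0.007 over all 11079 genes, and the summed signal was 94219.9 and 96779.5 in vector 1 and 2 and 87992.9 and 92360.2 in Cre 1 and 2. Top2a, the topoisomerase of dividing cells, read 6056, 5573, 5130 and 4900, a difference of -0.21 ± 0.14. Bub1, a mitotic checkpoint kinase gene, read 1800, 1756, 989.6 and 1702, with Cre 1 standing low. The part of proliferation in the differences of Uhrf1 and Dnmt1 was not tested.

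Dnmt3a and Dnmt3b encode the methyltransferases that set new DNA methylation. Dnmt3a read 269.5, 136, 400 and 252, so it was higher in Cre cells within each number (0.54 and 0.82) while the groups overlapped. The difference was 0.68 ± 0.39, with an SE of 0.205 in the paired model, and did not pass in either (limma adjusted p = 0.999, and 0.118 with the block). The value ran from 0.23 without vector 2 to 1.14 without vector 1. The second probe set past the filter, 1423063_at, was 0.33 higher in both numbers. Dnmt3b read 114, 166.5, 118 and 155, a difference of -0.024 ± 0.30. Whether Dnmt3a and Dnmt1 differ in their response was not tested.

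**Figure D3:**
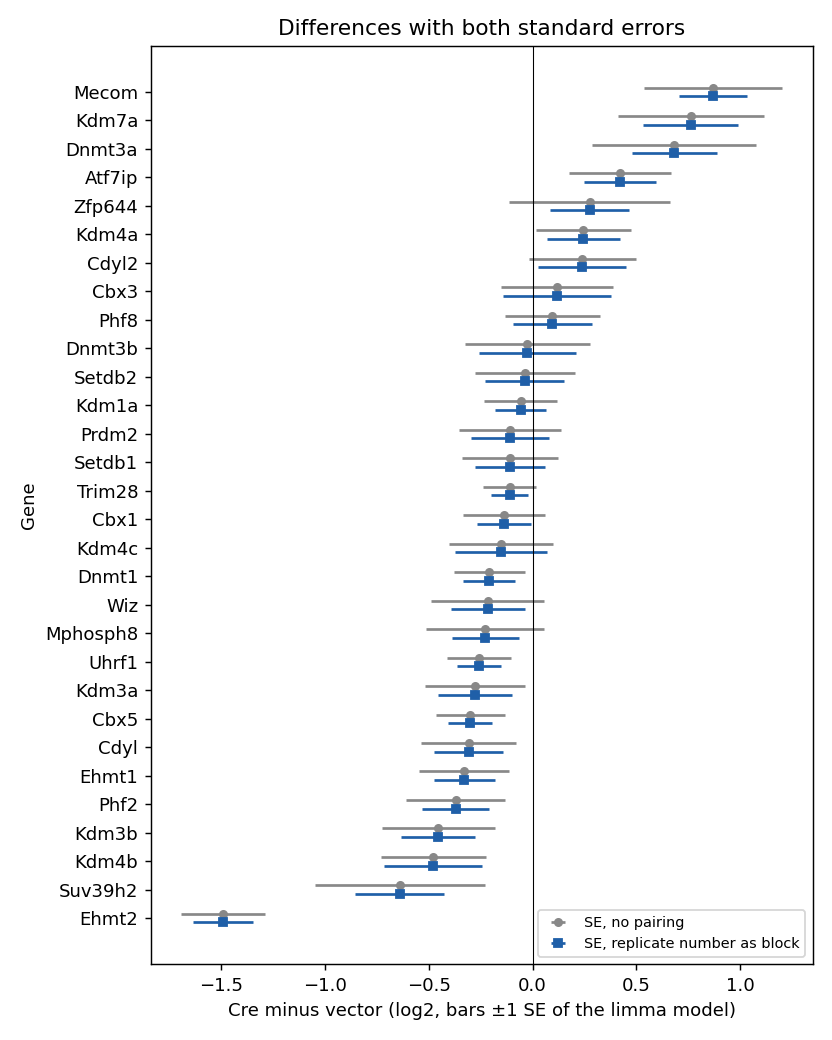
Difference of Cre minus vector (log2) for the 30 genes in order of size, with bars of 1 SE from the limma model without pairing (grey) and with the replicate number as a block (blue). Mecom at 0.87 and Ehmt2 at -1.49 are the ends of the range.

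Counted over the members, differences leaned lower. Of the 30 genes past the filter 21 had a negative and 9 a positive difference, beside 5417 and 5660 of all 11079 genes. The median was -0.12 (-0.033 within number 1 and -0.23 within number 2), against 0.007 over all 11079 genes. In the paired model 1 gene rose (Mecom) and 1 fell (Ehmt2) at a limma adjusted p under 0.05, beside 3.25% of all genes that rose and 0.984% that fell. Ehmt2 is the deleted gene. Among the 29 genes without it, 20 differences were negative and 9 positive with a median of -0.11, and in the paired model 1 rose and 0 fell. Over all probe sets tested, 2.29% rose and 0.853% fell in the paired model, and 0.00888% rose without the pairing. With median centring in place of quantile normalization the paired model called 375 probe sets higher and 291 lower, where the main scaling gave 516 and 192. Without the pairing 0 members passed, and at an unadjusted p under 0.05 limma gave 1 higher and 1 lower, the same 2 genes, beside 3.8% and 1.27% of all genes. At that unadjusted threshold the paired model gave 4 higher (Mecom, Kdm7a, Dnmt3a and Atf7ip) and 7 lower (Ehmt2, Ehmt1, Suv39h2, Cbx5, Kdm3b, Phf2 and Uhrf1), beside 10.8% and 7.53% of all genes. The difference was positive in both numbers for 7 genes and negative in both for 16, where all genes gave 32.8% and 30.2%.

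Non-overlap of the groups gives another count. Both Cre arrays exceeded both vector arrays at 8 of the 59 member probe sets (13.6%, against 14.2% of all probe sets tested). Both lay below at 17 (28.8%, against 15.8%). Ehmt2 accounts for 2 of the 17, and 15 of the other 57 (26.3%) were lower. Without the level filter 11 of 84 were higher (13.1%) and 19 lower (22.6%), beside 15.1% and 16% of all 45037 probe sets. The higher share thus lay near the background and the lower share above it, and probe sets of 1 gene share their target.

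By role, 1 of 7 writers was higher in Cre cells with no overlap (Mecom) and 2 lower (Ehmt2 and Ehmt1). Of 4 partners 1 was higher and 0 lower. Among 6 readers 1 was higher (Cbx3, by a margin of under 1 unit between vector 2 and Cre 2) and 2 lower (Cbx5 and Cdyl). The 9 tested erasers had 3 higher (Kdm4a, Kdm7a and Phf8) and 4 lower, and the 4 DNA methylation genes 0 higher and 2 lower. At gene level 6 of the 30 members were higher (20%) and 10 lower (33.3%) by this count, beside 17.5% and 13.6% of all genes. The lean to lower was not particular to the members. Of the 24 other heterochromatin genes tested, listed below, 2 were higher and 7 lower, and of the 19 proliferation genes 0 were higher and 4 lower.

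Several probe sets past the filter were available for 17 of the genes. By sign alone, with no minimum size, all probe sets of a gene were higher for 4 (Atf7ip, Cdyl2, Dnmt3a and Kdm7a) and all lower for 8 (Cdyl, Dnmt1, Ehmt2, Kdm1a, Kdm3b, Mphosph8, Trim28 and Uhrf1). These counts include probe sets near 0, such as 1449192_at of Atf7ip at 0.0041 (-0.067 and 0.075 within the numbers) and 1448935_at of Cdyl at -0.0033. The signs were mixed for 5 (Cbx1, Cbx5, Prdm2, Suv39h2 and Zfp644), where the positive probe set of Suv39h2 lay near 0 at 0.0064. Of the 59 probe sets, 9 are of the kinds that can match several transcripts. The 25 below the filter, of 14 genes, ranged from 2.7 to 118.5 units.

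**Figure D4:**
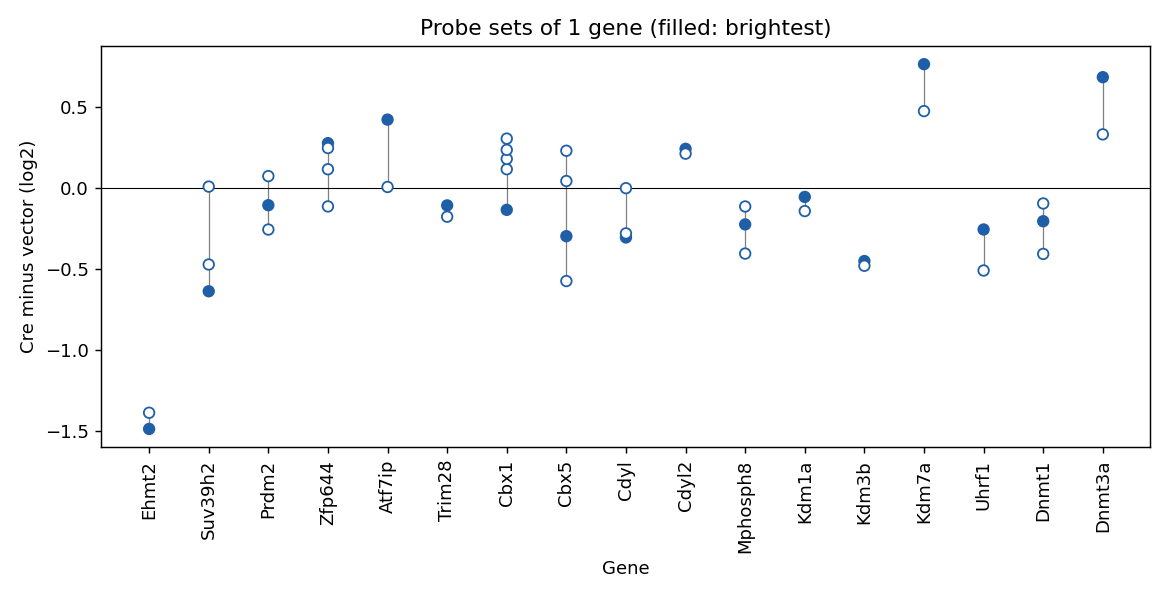
Difference of Cre minus vector (log2) for each probe set past the filter of the 17 genes with several, the brightest filled. Ehmt2 lies at -1.49 and -1.39, and the probe sets of Cbx1 and Cbx5 fall on both sides of 0.

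The members also differed between the replicate numbers, in cells of either group. Zfp644 was lower in number 2 by 1.04 in vector and by 0.39 in Cre cells, as Dnmt3a was by 0.91 and 0.63. Suv39h2 went the other way, with 0.54 in vector and 1.05 in Cre cells. The number effect, averaged over both groups, exceeded the Cre effect in 11 of the 30 genes (36.7%), against 61.6% of all genes. Its median size was 0.15 in the members and 0.26 in all genes, while the median size of the Cre effect was 0.25 and 0.18.

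**Figure D5:**
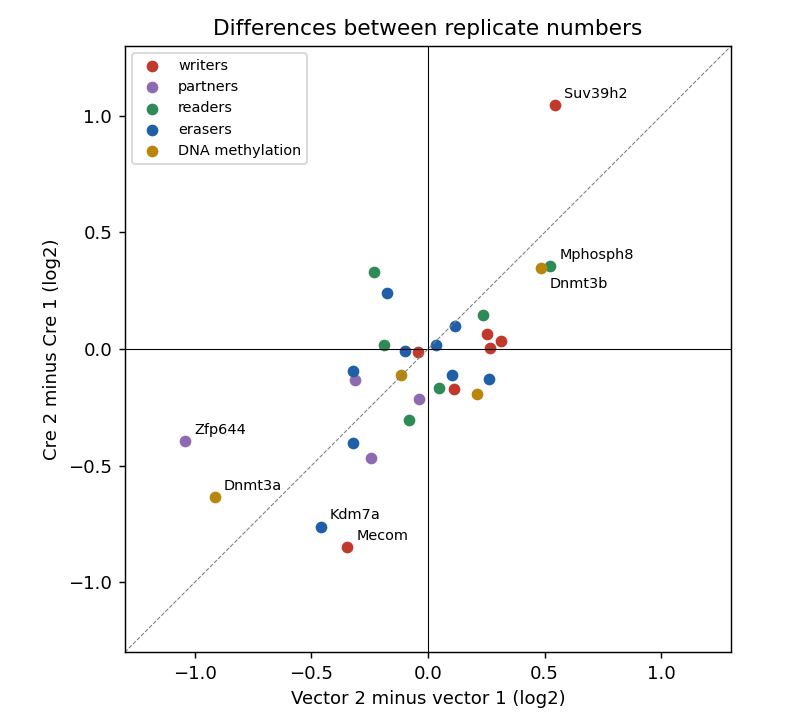
Difference of number 2 minus number 1 (log2) in vector cells (x axis) and in Cre cells (y axis) for the 30 genes, with the dashed line where both are equal. Zfp644, Dnmt3a, Kdm7a and Mecom were among the genes lower in number 2 in both groups, and Suv39h2, Mphosph8 and Dnmt3b among those higher.

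Other genes of heterochromatin were listed beside the members: 30 names, of which 29 had a probe set and 24 were tested. Of these 24, 16 had a negative and 8 a positive difference, with a median of -0.066 (0.007 over all genes). In both limma models 0 passed, and at an unadjusted p under 0.05 the counts were 1 higher and 0 lower without the block (3.8% and 1.27% of all genes), and 1 higher and 2 lower with it (10.8% and 7.53%). Prdm16, a PR-domain regulator of brown fat that has also been described as an H3K9 methyltransferase, read 56.4, 87.8, 140 and 149, a difference of 0.89 ± 0.30 (limma adjusted p = 0.999, and 0.11 with the block). Prdm16 was higher in both Cre arrays than in both vector arrays, as were Mecom and 17.5% of all genes, and its vector 1 signal lay under the filter level of 60.6 units. For Prdm2, at its brightest probe set, and for Prdm8, which was below the filter, the groups overlapped. Sirt6, an H3K9 deacetylase gene, read 461, 503, 308 and 379, a difference of -0.48 ± 0.25.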

How the data were processed

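Total RNA of 4 samples was hybridized to Affymetrix mouse arrays, 1 array each. The authors deposited 1 signal intensity per probe set and array on a linear scale, made with MAS5 per the submitters' processing notes. The MAS5 version is not given in the sources used here. The deposited values have the same mean on every array, 500 units after trimming 2% from each end, so each array had been scaled. That scaling left array medians of 67.2 and 50.6 units in vector 1 and 2 and 78 and 52.5 in Cre 1 and 2.

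After 64 control probe sets were set aside, 45037 were quantile normalized and taken as log2(signal + 16), which understates the change of dim genes. Normalised signals in the report are the same values before the log. Genes were named from the platform annotation (34945 probe sets with 1 symbol, 932 with several, 9160 with none), and for 34741 of the first the symbol was brought up to date with RefSeq (GRCm38.p6) by gene ID. Probe sets at or above the 50th percentile of the mean over all arrays were fitted in limma 3.58.1 under R 4.3.3 (lmFit, then eBayes, allowing the variance to follow the mean level), with Benjamini-Hochberg adjustment over all 22519. Without the pairing the model has 2 residual degrees of freedom, and with the replicate number as a block 1. To these limma adds prior degrees of freedom from the spread over all fitted probe sets, 4.1 without the pairing and 9.81 with the block. The paired p-values thus rest mostly on variance shared over probe sets. The functions were tested on simulated data.

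Same-numbered arrays share the pattern of sex-linked transcripts given in the report, and their deviations from the group means correlated at 0.603 over probe sets. The arrays were treated as paired by number on that ground, which comes from the data and not from the labels. The unpaired model, planned as the main one, was kept as such. All member genes are named, with every array's value for the brightest probe set past the filter (for Ehmt2 for both, and for further probe sets that opposed the brightest in both numbers or differed from it by over 0.5), and for each other list with tested genes the 2 with the smallest p. Further cell type markers were named after their values were seen. The members and lists were chosen with earlier results of these data known. Alternatives were pseudocounts of 1 and 64, the deposited scaling, median centring, no filter, a 75th percentile filter, no intensity trend, the block, other probe sets and leaving out each array.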

Additional observations from a re-analysis of the deposited data

How the results depend on the processing

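With the replicate number as a block Ehmt2 kept its difference of -1.49 and passed (limma adjusted p = 0.000281). Combined with the block, chosen after seeing the data, its difference was -1.505 with a pseudocount of 1, -1.445 with 64, -1.51 in the deposited scaling, -1.618 with median centring and -1.49 without the filter or with the 75th percentile filter, and it passed in each. Mecom passed in these except without the filter. The block changed no other member's call. Over the whole table the calls were 2 higher and 0 lower. The block gave 516 and 192, median centring 14 and 2, a pseudocount of 1 gave 1 higher, the 75th percentile filter 1, and no filter or no trend 0. Leaving out 1 array gave 7 to 28 higher and 0 to 3 lower. Member probe sets with no overlap, 8 higher and 17 lower of 59, were 5 higher with median centring and 3 higher of 30 with the 75th percentile filter. With 1 array left out they were 13 to 17 higher and 24 to 29 lower of 59, where non-overlap is easier to meet. The share over all probe sets was not computed for these settings, so these counts have no background beside them. Median centring moved the median of all genes from 0.007 to -0.094 and that of the members from -0.12 to -0.23, and with 1 array left out the members' median ran from -0.18 to -0.078. With 1 array left out the sign changed for 8 genes with small differences: Cbx1 (-0.29 to 0.015), Dnmt3b (-0.27 to 0.22), Kdm1a (-0.12 to 0.00085), Mphosph8 (-0.49 to 0.035), Prdm2 (-0.26 to 0.048), Setdb2 (-0.17 to 0.095), Wiz (-0.45 to 0.018) and Zfp644 (-0.25 to 0.80). Dnmt3b was 0.035 in the deposited scaling. Other probe sets turned the sign of Suv39h2 (0.0064), Prdm2 (0.071), Zfp644 (-0.12), Cbx1 (0.11, 0.30, 0.18 and 0.23) and Cbx5 (0.041 and 0.23). The cause of these changes was not tested. The signal over background limits Kdm4d and the dim probe sets.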
